A study of Apis mellifera with 24 samples.

Results

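The ovary transcriptome of egg-laying inhibited queens was compared with that of egg-laying queens of the honey bee Apis mellifera ligustica. The measure was FPKM (fragments mapped per kilobase of transcript, scaled to the number of mapped fragments), and the transcripts studied were all those with a mean FPKM of at least 0.1 over the 6 libraries compared, which were 17313 of the 21596 in the mRNA table. Of the 4283 others, 1699 were listed at 0 in all 6 libraries. The transcript nearest above this minimum (XM_006559368.1) averaged 0.1001 FPKM, and the nearest below it (XM_006567623.1) averaged 0.09999 FPKM.

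Egg-laying inhibited queens (n = 3) had laid eggs and were then held for 7 days in a small cage within the hive they came from, whereas egg-laying queens (n = 3) were not caged. All 6 were sisters from a single colony, lived in separate small colonies and were inseminated by instrument with the same semen, so that both groups were mated and 1 library is the ovary of 1 queen. The queens come from 1 family, and caging could not be told apart from the time at which the ovaries were taken, since inhibited queens may have been older at dissection. Recovery queens (caged, then released, n = 3) and virgin queens (n = 3) entered the fit for its estimate of the spread, and their values are given only where they place a transcript.

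A queen's ovary consists of many parallel ovarioles, in which germ cells divide, nurse cells fill the oocyte with RNA and protein, and follicle cells surround it and secrete the eggshell. Yolk protein and lipid come mostly from the fat body, travel through the haemolymph and are taken up by growing oocytes. A caged queen cannot lay, and the comparison asks which ovary transcripts accompany the halt in laying.

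The libraries were alike in scale and in germline content. FPKM values summed to 523139–533399 in inhibited queens and to 521059–559542 in egg-laying queens, and the median SD of log2(FPKM + 1) among queens was 0.155 in inhibited queens and 0.172 in egg-laying queens. The germline and germ cell cycle genes vas, nanos, aub and CycB3 were above 0 in every library, and their summed FPKM spanned 531–572 in inhibited queens and 515–630 in egg-laying queens, so the label of ovary held. As these are whole ovaries, fewer cells of a type and less RNA per cell cannot be told apart. The number of reads in each library was not used here, so the depth behind single values is unknown, and a transcript at 0 is described as listed at 0, since 5 of the 7003 transcripts with a mean of 10 FPKM or more were under 0.01 in at least 1 of the 6 libraries.

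Few transcripts were differentially expressed in the test used here, most of them higher in inhibited queens. With limma on log2(FPKM + 1), 25 of the 17313 transcripts (0.144%) had a Benjamini-Hochberg adjusted p under 0.05, of which 16 (0.0924%) were up-regulated and 9 (0.052%) were down-regulated in inhibited queens. The risen transcripts had log2 changes between 0.67 and 2.09 with a median of 1.25, and the fallen ones between −4.51 and −0.60 with a median of −2.42. Across all transcripts tested the median log2 change was −0.01, the central 90% lay between −0.40 and 0.49, and 1377 transcripts (7.95%) had an unadjusted p under 0.05. In 1360 transcripts (7.86%) every inhibited queen lay above every egg-laying queen, and in 1262 (7.29%) every inhibited queen lay below. All 25 differentially expressed transcripts were of this kind. The count of 25 became 9 without inhibited queen 1, 12 without egg-laying queen 1 and 86 with weights for library quality, so it is an approximate number. The study, with DESeq and an adjusted p under 0.05, reported far more mRNAs as changed between these groups. A small count is therefore tied to the test used and is not a measure of how much caging changed.

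**Figure D1:**
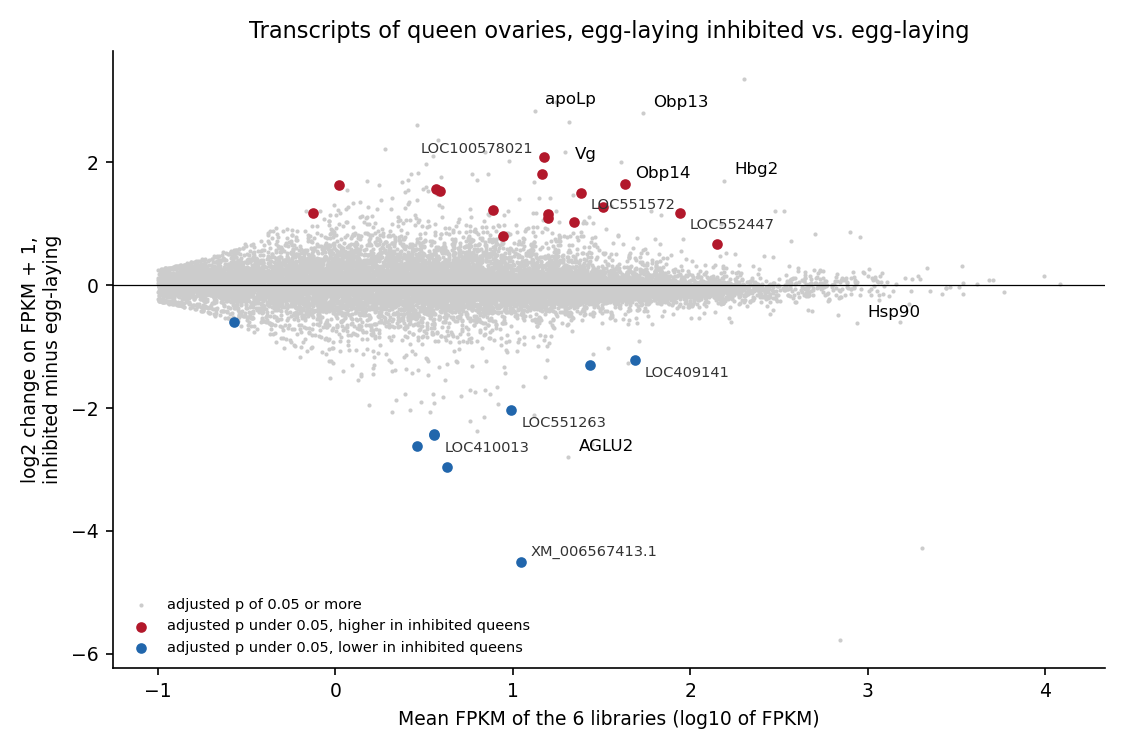
Log2 change on FPKM + 1 (inhibited minus egg-laying queens) of each of the 17313 transcripts, on the vertical axis, against the log10 of its mean FPKM over the 6 libraries. Coloured points are the 16 risen and 9 fallen transcripts, and grey points, among them apoLp and AGLU2, did not pass the test although some had larger changes.

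Only Obp14 and clavesin-2 among the 25 carry a gene symbol or name in the sources used here. Of the others, 18 carry a RefSeq locus number alone (LOC and digits) and 5 carry a transcript number alone, and these are described by their levels without a role.

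Obp14 encodes an odorant-binding protein, one of a family of small secreted proteins that carry hydrophobic molecules. Obp14 (NM_001040223.1) had 84.6, 47.9 and 63.4 FPKM in inhibited queens, against 20.7, 21.8 and 16.9 FPKM in egg-laying queens. All inhibited queens were well above all egg-laying queens, and the log2 change was 1.64 (SE 0.20, adjusted p = 0.0102). Recovery queens, at 72.4, 107 and 84.2 FPKM, overlapped inhibited queens, and virgin queens, at 15.7, 16.3 and 11.7 FPKM, lay just below egg-laying queens.

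Obp13, the gene beside Obp14 in the genome, had the larger difference but missed the threshold. It had 105, 105 and 73.7 FPKM in inhibited queens, against 13.8, 20.8 and 6.7 FPKM in egg-laying queens (log2 change 2.80, SE 0.48, adjusted p = 0.0544). The groups did not overlap, and the adjusted p fell under the threshold in 6 of 24 alternative analyses. Recovery queens spread widely, from 30.5 through 74.7 to 126 FPKM, while virgin queens had at most 0.921 FPKM.

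Among the 16 odorant-binding and chemosensory protein genes tested, Obp14 alone was differentially expressed. In 5 of the 16 every inhibited queen lay above every egg-laying queen, in none below, and the median log2 change was 0.18. Read from 1 transcript a gene, 607 of the 7099 genes tested (8.55%) had no overlap with inhibited queens higher, 661 (9.31%) had none with inhibited queens lower, 18 (0.254%) were differentially expressed and the median log2 change was −0.03. The 5 were Obp14, Obp13, Obp3, Obp12 and CSP2. Obp3 had 12.3, 10.6 and 12.6 FPKM in inhibited queens and 1.76, 2.76 and 3.71 FPKM in egg-laying queens (log2 change 1.81, SE 0.49, adjusted p = 0.287). At the other end stood CSP1, whose queens overlapped (log2 change −0.75, SE 0.38, adjusted p = 0.690). Obp10, expressed at 6.28, 5.17 and 7.02 FPKM in inhibited queens and 4.95, 5.34 and 5.55 FPKM in egg-laying queens, also overlapped.

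**Figure D2:**
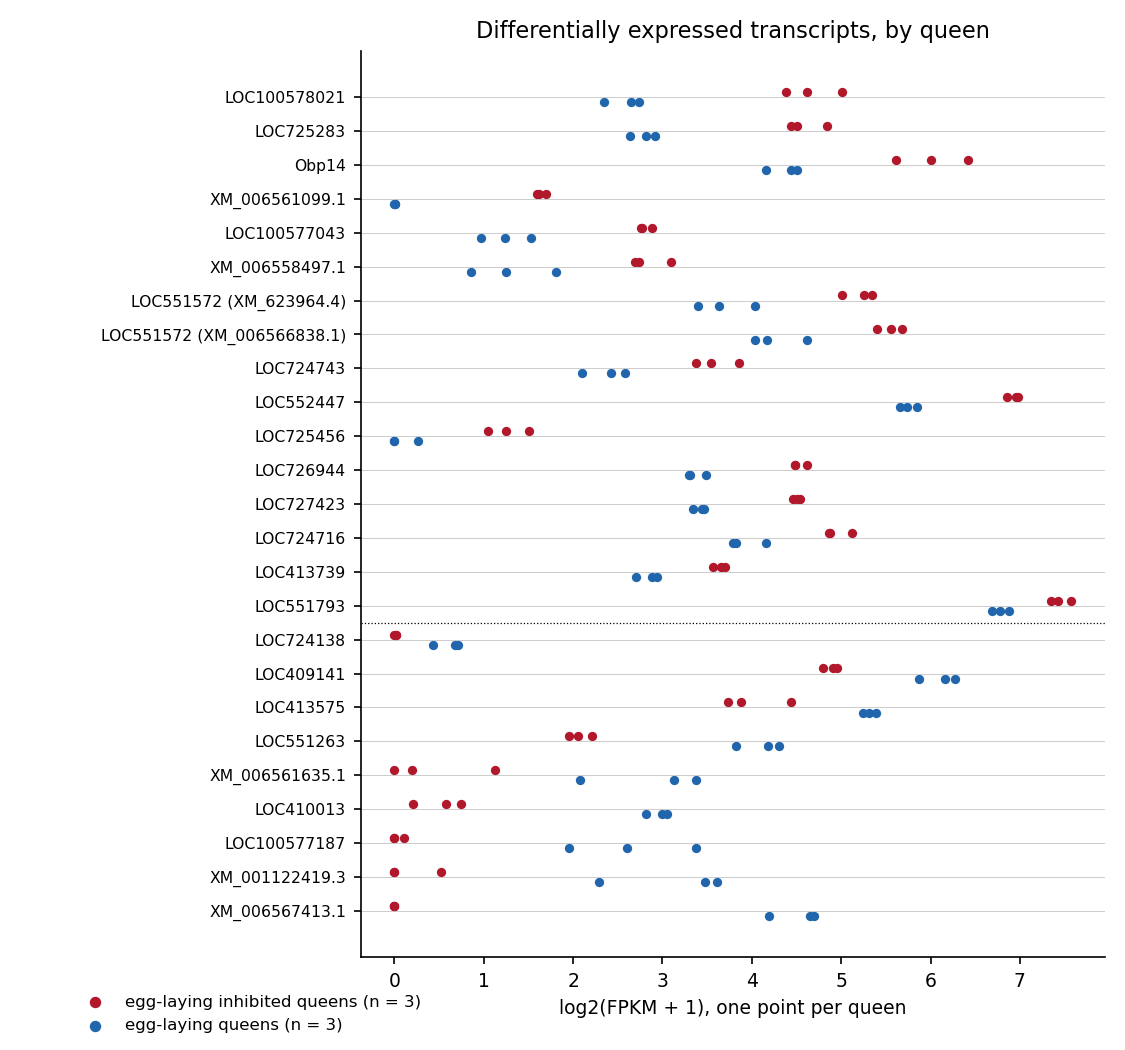
Values of log2(FPKM + 1) in each queen for the 25 differentially expressed transcripts, with inhibited queens drawn above egg-laying queens on each line. Those above the dotted line rose and those below it fell, and in no transcript do the groups overlap.

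The second named gene, clavesin-2, belongs to the CRAL-TRIO family of lipid-binding proteins, and in mammals clavesins act on endosomes. Clavesin-2 (LOC552447, XM_624820.4) had 125, 115 and 123 FPKM in inhibited queens, against 49.5, 52.1 and 56.6 FPKM in egg-laying queens (log2 change 1.19, SE 0.18, adjusted p = 0.0302). The call is not firm, since it was lost in 12 of 24 alternative analyses, with adjusted p up to 0.163. Its level after release, 43.2, 61.1 and 68.7 FPKM in recovery queens, lay around that of egg-laying queens. Clavesin-2 lies on chromosome 11 (11166191 to 11171919 in Amel_4.5), within a region linked to ovary size by earlier work. The study listed 73 genes of that region because they were differentially expressed in these libraries, so they are neither all of its genes nor an independent choice. Of the 73, clavesin-2 was the 1 differentially expressed here, 7 had inhibited queens above and 8 had them below without overlap, against 8.55% and 9.31% of all genes, and the median log2 change was −0.05. LOC408361 of the same list, like alpha-tocopherol transfer protein, another carrier of the CRAL-TRIO family, had 496, 332 and 436 FPKM in inhibited queens and 170, 160 and 211 FPKM in egg-laying queens. The groups stood apart, but the adjusted p was 0.118 (log2 change 1.21, SE 0.25). Its transcript XM_006566390.1 had 106, 73.7 and 105 FPKM in inhibited queens and 39.8, 39.4 and 47 FPKM in egg-laying queens. It stood apart too and did not pass (log2 change 1.14, SE 0.22, adjusted p = 0.0908).

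LOC551572 rose in both of its transcripts. XM_623964.4 had 39.6, 37.2 and 31.2 FPKM in inhibited queens, against 11.4, 15.4 and 9.54 FPKM in egg-laying queens (log2 change 1.51, SE 0.16, adjusted p = 0.00341). XM_006566838.1 had 46.1, 50.3 and 41.2 FPKM in inhibited queens, against 17, 23.6 and 15.4 FPKM in egg-laying queens (log2 change 1.27, SE 0.19, adjusted p = 0.0302). Summed over the gene, the log2 change was 1.40 (SE 0.18, adjusted p = 0.00924). LOC727423 rose as well, with 22.3, 21 and 21.8 FPKM in inhibited queens, against 9.84, 9.15 and 10 FPKM in egg-laying queens (log2 change 1.09, SE 0.12, adjusted p = 0.00341).

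Among the differentially expressed transcripts the largest rise was that of LOC100578021, with 31.2, 19.8 and 23.6 FPKM in inhibited queens and 4.09, 5.29 and 5.66 FPKM in egg-laying queens (log2 change 2.09, SE 0.32, adjusted p = 0.0302). After release it lay below both groups, at 0.446, 1.6 and 3.17 FPKM in recovery queens. Its call was lost in 14 of 24 alternative analyses, with adjusted p up to 0.204. LOC725283 came next, with 27.8, 20.7 and 21.7 FPKM in inhibited queens and 6.54, 6.05 and 5.24 FPKM in egg-laying queens (log2 change 1.81, SE 0.28, adjusted p = 0.0302). Its annotated span overlaps LOC100577043, which also rose, with 5.8, 6.38 and 5.8 FPKM in inhibited queens and 1.35, 1.88 and 0.961 FPKM in egg-laying queens (log2 change 1.56, SE 0.24, adjusted p = 0.0302). Because of this overlap the values of the 2 may not be independent.

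XM_006561099.1 was close to 0 outside the inhibited group. It had 2.02, 2.07 and 2.23 FPKM in inhibited queens, against 0.000774, 0 and 0.00118 FPKM in egg-laying queens (log2 change 1.63, SE 0.10, adjusted p = 1.48e-05). A second transcript number, XM_006561098.1, held identical values in these 6 libraries but 1.79 FPKM in virgin queen 3, and its adjusted p was 0.0903. XM_006558497.1 was another rise without a gene number, with 7.51, 5.46 and 5.67 FPKM in inhibited queens and 0.809, 2.5 and 1.38 FPKM in egg-laying queens (log2 change 1.53, SE 0.24, adjusted p = 0.0302).

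In LOC724743 and LOC725456 a single transcript passed the test and the gene as a whole did not. XM_001120635.3 of LOC724743 had 10.7, 9.38 and 13.5 FPKM in inhibited queens and 4.35, 4.98 and 3.28 FPKM in egg-laying queens (log2 change 1.23, SE 0.19, adjusted p = 0.0302). The sum over the 8 transcripts of LOC724743 had a log2 change of 0.33 (adjusted p = 0.288). Another, XM_006567779.1, was also higher without overlap but missed the threshold (log2 change 0.95, SE 0.18, adjusted p = 0.0865). XM_006567777.1 lay lower without overlap (log2 change −0.30, SE 0.14, adjusted p = 0.635), and XM_006567781.1 overlapped. XM_006564958.1 of LOC725456 had 1.06, 1.37 and 1.83 FPKM in inhibited queens, against 0.201 FPKM in egg-laying queen 1 and a listed 0 in the other egg-laying queens (log2 change 1.18, SE 0.17, adjusted p = 0.024), and the sum of both its transcripts had a log2 change of 0.66 (adjusted p = 0.255). FPKM divided among the transcripts of 1 gene is an estimate, so these rises are less certain than those of whole genes. LOC726944 had 21.4, 21.3 and 23.5 FPKM in inhibited queens and 8.79, 10.2 and 8.87 FPKM in egg-laying queens (log2 change 1.17, SE 0.17, adjusted p = 0.0302).

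Smaller rises completed the set. LOC551793, the most abundant of all 25, had 161, 171 and 189 FPKM in inhibited queens and 102, 116 and 109 FPKM in egg-laying queens (log2 change 0.67, SE 0.10, adjusted p = 0.0302). The remaining pair, LOC724716 and LOC413739, had log2 changes of 1.03 (adjusted p = 0.024) and 0.80 (adjusted p = 0.0302). With LOC727423 these lie below the 12 largest rises and were named after their values were seen.

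Among the falls, XM_006567413.1 was listed at 0 in all 3 inhibited queens, against 24.1, 24.9 and 17.3 FPKM in egg-laying queens (log2 change on FPKM + 1 −4.51, SE 0.16, adjusted p = 6.57e-08). It was listed at 0 in every recovery and virgin queen too, so that egg-laying queens were the exception among the 12. LOC100577187 (XM_003251948.1) had 0, 0.0732 and 0 FPKM in inhibited queens, against 2.87, 9.35 and 5.09 FPKM in egg-laying queens (log2 change −2.61, SE 0.28, adjusted p = 0.00341). In that gene recovery queens had 3.03, 3.92 and 2.74 FPKM, and virgin queens were listed at 0.

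LOC551263 fell to 2.87, 3.65 and 3.15 FPKM in inhibited queens, against 18.8, 13.1 and 17.2 FPKM in egg-laying queens (log2 change −2.03, SE 0.22, adjusted p = 0.00341). Recovery queens were at 36.3, 25.2 and 18.8 FPKM, so that they lay level with or above the highest egg-laying queen and far above inhibited queens. LOC410013 fell to 0.155, 0.495 and 0.68 FPKM in inhibited queens, against 7.26, 6.01 and 6.99 FPKM in egg-laying queens (log2 change −2.44, SE 0.32, adjusted p = 0.0156), and recovery queens had 5.69, 15.6 and 11.6 FPKM. Summed over both of its transcripts, LOC410013 kept a log2 change of −2.21 (SE 0.28, adjusted p = 0.00924).

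LOC409141 was the most abundant transcript that fell, with 26.8, 29.1 and 30 FPKM in inhibited queens, against 76.5, 70.9 and 57.4 FPKM in egg-laying queens (log2 change −1.22, SE 0.13, adjusted p = 0.00341). Virgin queens, at 41.1, 45.9 and 39 FPKM, lay between the groups, and recovery queens, at 81.8, 78.6 and 59 FPKM, overlapped egg-laying queens. LOC413575 had 13.7, 20.8 and 12.3 FPKM in inhibited queens and 37, 38.8 and 40.9 FPKM in egg-laying queens (log2 change −1.30, SE 0.19, adjusted p = 0.0302). In both genes inhibited queens lay below egg-laying queens without overlap.

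The other falls were at low levels. XM_006561635.1 had 0, 0.148 and 1.19 FPKM in inhibited queens and 9.36, 3.21 and 7.74 FPKM in egg-laying queens (log2 change −2.42, SE 0.37, adjusted p = 0.0302). XM_001122419.3 had 0.43, 0 and 0 FPKM in inhibited queens and 10.1, 11.2 and 3.89 FPKM in egg-laying queens (log2 change −2.95, SE 0.49, adjusted p = 0.0466). A transcript of LOC724138 was under 0.01 FPKM in every inhibited queen and between 0.351 and 0.643 FPKM in egg-laying queens (log2 change −0.60, SE 0.10, adjusted p = 0.0483), and its gene did not pass when its transcripts were summed (adjusted p = 0.366).

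The 25 differed in how firmly they were called. Over 24 alternative analyses (other scales, filters, sample sets and models, and each library left out in turn) none changed direction. Obp14, XM_006561099.1, XM_623964.4 of LOC551572, LOC727423, LOC409141 and XM_006567413.1 passed in all 24. LOC551263 and LOC100577187 passed in 23, and 12 of the 25 were lost in 12 or more. These 12 were LOC724138, LOC724743, LOC100577043, XM_006558497.1, XM_001122419.3, LOC100578021, LOC725283, XM_006561635.1, clavesin-2, LOC413739, LOC413575 and LOC551793. XM_006561099.1 should still be read with care. XM_006561098.1, which differed from it only in virgin queen 3, had an adjusted p of 0.0903 in the main fit. XM_006567413.1 calls for care too. It was listed at 0 in every inhibited, recovery and virgin queen, so only egg-laying queens varied in the spread estimated for it.

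Named genes with known roles were gathered in 23 lists, some of which share genes, and of the 188 genes in them that were tested Obp14 was the only 1 differentially expressed. In 22 of the 188 inhibited queens lay above without overlap and in 22 below, against 8.55% and 9.31% of all genes. The genes described next therefore did not pass the test, and their values are given as measured.

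**Figure D3:**
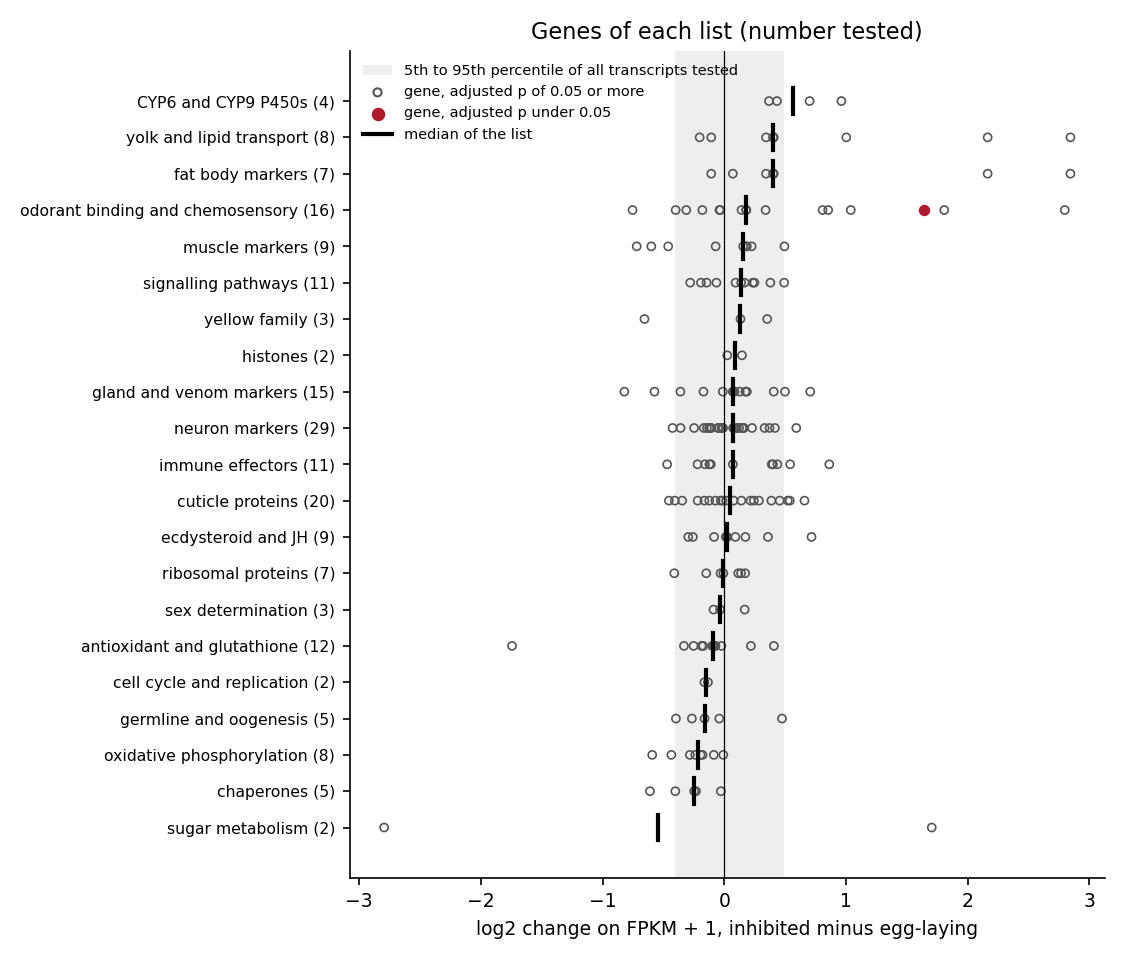
Log2 change on FPKM + 1 (inhibited minus egg-laying queens) of each tested gene in 21 of the lists, with the number tested in brackets. Black bars are list medians and the grey band holds the central 90% of all transcripts tested (−0.40 to 0.49). Obp14 is the single filled point.

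In the yolk and lipid transport list inhibited queens lay above without overlap in 4 of 8 genes and below in none. This stands against 8.55% and 9.31% of all genes, and the median log2 change of the list was 0.40. Apolipophorin (apoLp), the lipid carrier of the haemolymph, had 45.6, 10.2 and 17.7 FPKM in inhibited queens, against 1.09, 2.08 and 3.08 FPKM in egg-laying queens (log2 change 2.85, SE 0.54, adjusted p = 0.0903). Vg, the yolk precursor vitellogenin, had 21.8, 54 and 23.6 FPKM in inhibited queens, against 5.56, 7.28 and 5.29 FPKM in egg-laying queens (log2 change 2.16, SE 0.69, adjusted p = 0.396). In both genes the groups stood apart, inhibited queens spread widely, and a different queen was the highest in each. A fatty acid-binding protein, Fabp (LOC408689), had 253, 162 and 187 FPKM in inhibited queens and 104, 98.1 and 91.7 FPKM in egg-laying queens (log2 change 1.00, SE 0.21, adjusted p = 0.118). The fourth gene without overlap was the storage protein gene Hex70a, with 5.45, 5.61 and 5.75 FPKM in inhibited queens and 4.80, 4.25 and 3.64 FPKM in egg-laying queens.

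Vg, apolipophorin, the hexamerins and transferrin also mark fat body, which adheres to dissected ovaries. Most of the 7 fat body markers are also in the yolk and lipid transport list, so the counts of the lists are not independent. In 3 of the 7 inhibited queens lay above without overlap, against 8.55% of all genes, and none was at 0 in inhibited queens. The 7 summed to 128–181 FPKM in inhibited queens and 86.3–99.9 FPKM in egg-laying queens. Most of that difference lay in Vg and apoLp, but 6 of the 7 had positive log2 changes. Hex70b averaged 56.0 ± 5.62 FPKM in inhibited queens and 42.6 ± 10.1 FPKM in egg-laying queens, with overlap (SD, n = 3 each). Tsf1 (transferrin) averaged 29.3 ± 10.1 FPKM in inhibited queens and 27.0 ± 3.46 FPKM in egg-laying queens. Hex70c averaged 8.03 ± 1.24 FPKM in inhibited queens and 8.82 ± 2.20 FPKM in egg-laying queens. The 9 muscle markers summed to 182–199 FPKM in inhibited queens and 179–205 FPKM in egg-laying queens, mostly from myophilin and TpnCIIa. Of the 9, 3 (Mlc2, TpnI and TpnCI) had inhibited queens below without overlap, against 9.31% of all genes. The part of attached fat body in these values was not tested.

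**Figure D4:**
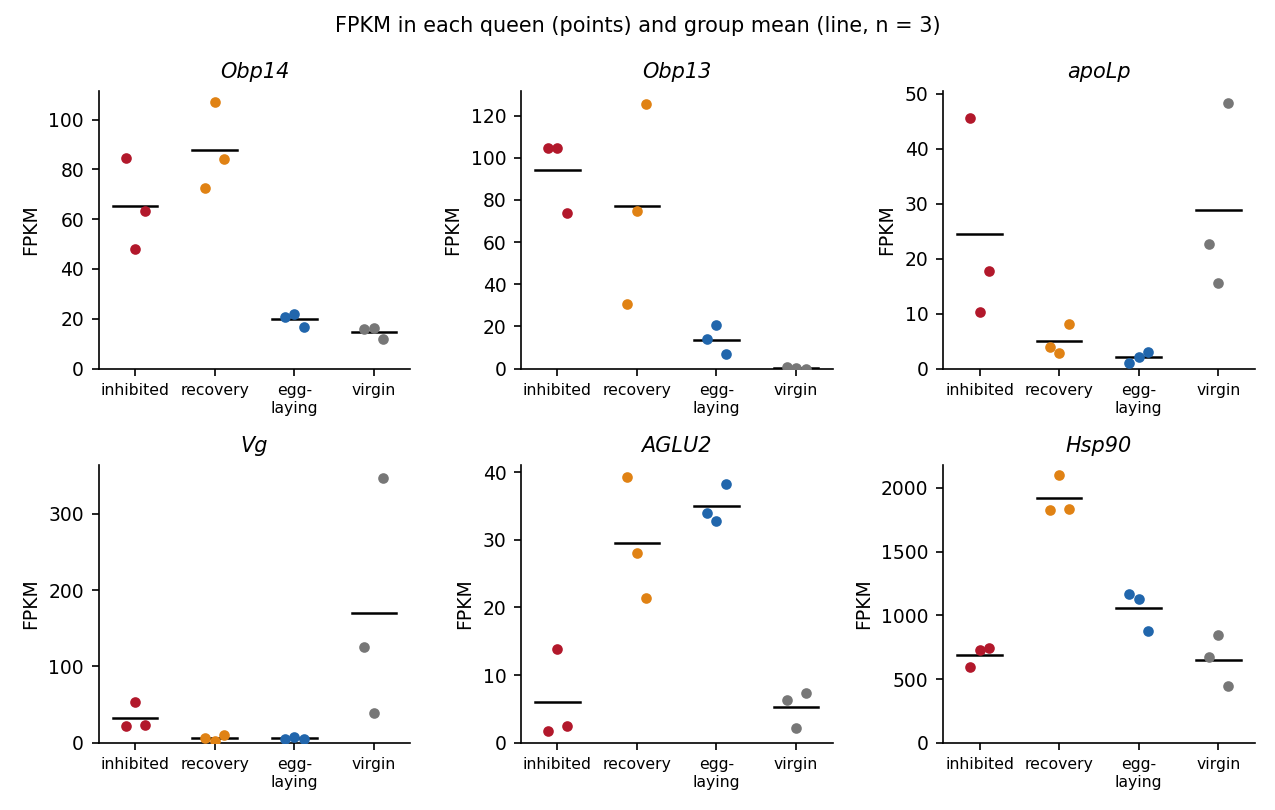
FPKM of Obp14, Obp13, apolipophorin, Vg, AGLU2 and Hsp90 in each queen, 3 queens per group, with horizontal marks at the group means. Inhibited queens lie above every egg-laying queen in Obp14, Obp13, apolipophorin and Vg, and below every one in AGLU2 and Hsp90.

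The alpha-glucosidases, which split sugars such as sucrose and maltose, differed in opposite directions without passing the test. AGLU2 had 1.69, 13.9 and 2.46 FPKM in inhibited queens, against 34, 32.7 and 38.2 FPKM in egg-laying queens (log2 change −2.80, SE 0.55, adjusted p = 0.0948). Inhibited queen 2 stood apart from the other inhibited queens, and without it the log2 change was −3.56. AGLU2 missed the threshold in 22 of 24 alternative analyses. Its adjusted p ranged from 0.00742, without that queen, to 0.387. Hbg2 had 238, 386 and 108 FPKM in inhibited queens, against 56.2, 83.6 and 58.9 FPKM in egg-laying queens (log2 change 1.71, SE 0.51, adjusted p = 0.364). Neither gene showed overlap between the groups.

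No chaperone or respiration gene passed the test. All 5 chaperone genes had negative log2 changes (median −0.25), and 4 had inhibited queens below without overlap, against 9.31% of all genes. The other, Hsc70-4, averaged 3227 ± 148 FPKM in inhibited queens and 3291 ± 202 FPKM in egg-laying queens (SD, n = 3 each). Hsp90 had 595, 726 and 747 FPKM in inhibited queens, against 1164, 1125 and 877 FPKM in egg-laying queens (log2 change −0.61, SE 0.21, adjusted p = 0.458). The mitochondrial chaperone Hsp60 had 243, 257 and 257 FPKM in inhibited queens, against 345, 342 and 315 FPKM in egg-laying queens (log2 change −0.40, SE 0.14, adjusted p = 0.451). All 8 genes of oxidative phosphorylation were negative as well (median −0.22), 4 of them without overlap, against 9.31% of all genes. The smallest change was −0.01 in Cox6b1, whose groups overlapped. The median log2 change of all genes was −0.03, so negative signs were common among them. Cox6c, a subunit of cytochrome c oxidase, had 1102, 1212 and 1279 FPKM in inhibited queens and 1847, 2320 and 1366 FPKM in egg-laying queens (log2 change −0.59, SE 0.20, adjusted p = 0.421), and cytochrome c (CytC) had a log2 change of −0.43 (SE 0.18, adjusted p = 0.604).

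Among germline and oogenesis genes none passed (median log2 change −0.16). In 1 of 5, Dcr-1, inhibited queens lay below without overlap, against 9.31% of all genes. Nanos, a translational repressor needed in germ cells, had 180, 152 and 172 FPKM in inhibited queens and 120, 90.9 and 161 FPKM in egg-laying queens (log2 change 0.47, SE 0.18, adjusted p = 0.518). Vas, a germline RNA helicase, had 220, 251 and 299 FPKM in inhibited queens and 311, 298 and 311 FPKM in egg-laying queens, so that the groups overlapped (log2 change −0.27, SE 0.21, adjusted p = 0.813). The core histone gene H3, at 12291, 11614 and 12442 FPKM in inhibited queens and 13544, 11682 and 10654 FPKM in egg-laying queens, overlapped too. The 7 ribosomal protein genes had a median log2 change of −0.01 and overlapped throughout.

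Of 9 ecdysteroid and juvenile hormone genes tested, only the transcription factor Mblk-1 stood without overlap, with 9.49, 9.94 and 9.57 FPKM in inhibited queens and 3.80, 5.02 and 8.43 FPKM in egg-laying queens (log2 change 0.72, SE 0.35, adjusted p = 0.675). The median of the list was 0.02, and 8.55% of all genes lay above without overlap. Among 4 tested P450 genes of the CYP6 family, whose enzymes oxidise foreign compounds, 2 lay above without overlap, against 8.55% of all genes (median 0.57). CYP6AS4 had 14.5, 6.78 and 13.3 FPKM in inhibited queens and 5.24, 6.17 and 4.21 FPKM in egg-laying queens (log2 change 0.96, SE 0.27, adjusted p = 0.324). In the immune list 1 of 11 genes lay above and 1 below, against 8.55% and 9.31% of all genes (median 0.07). The antimicrobial peptide gene Def1 reached 42.6 FPKM in inhibited queen 1 but 8.45 and 5.88 FPKM in the other inhibited queens. Egg-laying queens had 9.65, 4.52 and 7.02 FPKM of Def1.

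No gene of the remaining lists passed either. The counts without overlap in this paragraph stand against 8.55% of all genes above and 9.31% below. In muscle, 1 of 9 genes lay above and 3 below without overlap (median 0.16). The troponin gene TpnI had 3.57, 4.60 and 2.86 FPKM in inhibited queens and 8.17, 6.17 and 5.70 FPKM in egg-laying queens (log2 change −0.72, SE 0.36, adjusted p = 0.688), and myosin light chain 2 (Mlc2) had 9.22, 9.4 and 13.2 FPKM in inhibited queens and 19.7, 14.6 and 15.2 FPKM in egg-laying queens (log2 change −0.60, SE 0.26, adjusted p = 0.618). Among 29 neuronal genes 3 lay above and 1 below (median 0.07), the 15 gland and venom genes all overlapped (median 0.07), and among 12 antioxidant and glutathione genes 1 lay above and 3 below (median −0.09). The nicotinic receptor subunit nAChRb2 had a log2 change of 0.59 (SE 0.18, adjusted p = 0.371). Among 11 signalling genes 1 lay below (median 0.14), among 20 cuticle protein genes 2 lay above and 2 below (median 0.05), and the 3 yellow family, 3 sex determination and 2 cell cycle genes tested all overlapped. Of 31 genes that the study singled out for reproduction, hexokinase was not matched to a transcript here, and of the other 30, 5 lay above and 4 below and none was differentially expressed here (median 0.06). That list was drawn from these libraries and is no independent evidence. The study itself, with DESeq, reported several of its genes as changed between these groups. They were Vg, apolipophorins, Hsp60, Hsp90, Def1, Mlc2, CYP6AS3, CYP6AS4, CYP6AS5 and CYP6BD1. The test used here differs, and the reason for the unlike calls was not tested.

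Genes beside a risen gene often had higher values in inhibited queens too, a pattern noticed after the values were seen and given as a count. In the RefSeq gene order of Amel_HAv3.1, used for order only, 12 risen genes could be placed and 17 of their directly adjacent genes were tested. Of these, 8 were higher with an unadjusted p under 0.05, against 363 of the 7099 genes (5.11%). A positive log2 change was found in 13 of the 17, while the median over the 7099 genes was −0.03. The 8 include LOC725283 and LOC100577043, which are adjacent, overlap in the annotation and both rose. Leaving out adjacent genes that were themselves differentially expressed, 6 of 15 remained. For the 5 fallen genes that could be placed, 2 of 9 adjacent genes were lower with an unadjusted p under 0.05, against 259 of the 7099 (3.65%).

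These neighbours include Obp13 beside Obp14. LOC725420, beside LOC725456, had 3.21, 3.38 and 2.61 FPKM in inhibited queens and 0.298, 0.865 and 0.524 FPKM in egg-laying queens (log2 change 1.39, SE 0.24, adjusted p = 0.057). LOC726953, beside LOC551572, had 12.5, 12.2 and 11.7 FPKM in inhibited queens and 5.70, 7.32 and 6.36 FPKM in egg-laying queens (log2 change 0.82, SE 0.17, adjusted p = 0.119). Both stood apart between the groups without passing. On chromosome 11, LOC408361 follows clavesin-2 with LOC727007 between them, and LOC727007 and LOC408361 overlap in that annotation. Whether adjacent genes share reads or transcripts was not tested.

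**Figure D5:**
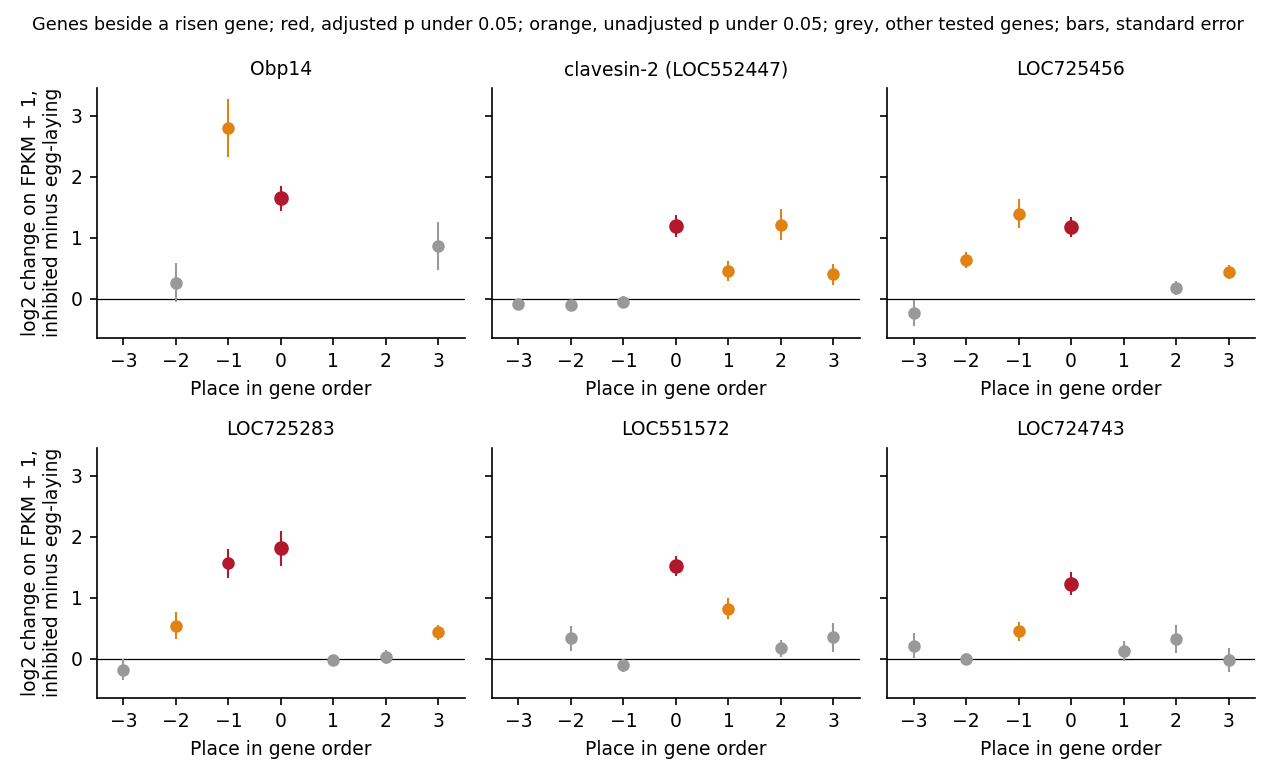
Log2 change on FPKM + 1 (inhibited minus egg-laying queens, bars are the standard error) of risen genes, at place 0, and of the tested genes up to 3 places on either side in RefSeq gene order. These 6 genes are shown because an adjacent gene was higher with an unadjusted p under 0.05 (LOC100577043, which also met this, is the gene at place −1 of LOC725283), so the raised neighbours at place −1 or 1 are what they were chosen for.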

How the data were processed

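Ovaries of 12 queens in 4 groups of 3 gave 12 strand-specific mRNA libraries. Per the labels and methods, the authors aligned reads with TopHat2 2.0.9 and Bowtie2 2.0.6 to the Amel_4.5 genome and assembled transcripts with Cufflinks. They deposited FPKM per transcript, which are already divided by transcript length and library size. Counts per library were not used here. Groups came from the sample labels. A pseudocount of 1 was added before the base-2 logarithm, which understates changes of low transcripts. All 12 libraries entered 1 fit with a mean per group in limma 3.58.1 (lmFit, eBayes with trend, R 4.3.3), and two-sided p-values were adjusted over all 17313 transcripts by the Benjamini-Hochberg method. The fit was first tested on simulated data. An exact permutation test of 3 queens against 3 cannot give a p under 0.1, so none was used. For genes, the transcript with the highest mean FPKM was read.

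Named were the 12 largest rises, all 9 falls (the rule allowed 12), list members with the largest and smallest log2 change in the lists described, and others stated as chosen later or shown for context. Members and lists were chosen with earlier results of these data known. Gene numbers were paired with 12556 of the 21596 transcripts (58.1%) from the study's tables and RefSeq, where 3 pairs differed. The alternatives were other pseudocounts, FPKM minimums, rescalings, sample sets, array weights, sums per gene, a replicate block and each library left out. MicroRNA and lncRNA files were not used here.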

Additional observations from a re-analysis of the deposited data

How the results depend on the processing

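None of the 25 differentially expressed transcripts reversed direction under an alternative. Nor did the other genes that were followed, among them Obp13, Vg, apoLp, AGLU2 and Hsp90. Small log2 changes such as that of Cox6b1 were not followed through the alternatives, so their sign is not settled. The count of 25 differentially expressed transcripts became 15 with no FPKM filter, 16 with quantile normalization (9 risen, 7 fallen, against 16 and 9), 38 with only the 6 libraries compared, and 86 with array weights. Shared with the 25 were 13, 16, 17 and 25 of these. Leaving out each library in turn gave counts between 9 (without inhibited queen 1) and 35 (without recovery queen 1), and counts of 12 to 15 without egg-laying queens 1, 2 or 3, recovery queen 2 or virgin queen 1. Of the genes in the lists only Obp14 was called, whereas a mean FPKM of at least 1 gave 2, the 6 libraries alone gave 3, array weights gave 5, sums per gene gave 2, and leaving out each library gave 1 to 2. Replicate numbers did not pair the queens, since deviations of same-numbered inhibited and egg-laying queens correlated at −0.03, 0.05 and −0.09, and a replicate block gave 14 transcripts, 11 of them among the 25. The causes of these shifts were not tested. With 3 queens a group and no depth per library, small changes and transcripts near 0 are measured least well.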

Other observations

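Some abundant transcripts differed widely among the inhibited queens, and they were picked after their values were seen. A transcript of LOC100188940 (XM_006562069.1) had 0, 2916 and 943 FPKM in inhibited queens, against 3203, 3095 and 1994 FPKM in egg-laying queens. XM_001123087.3 had 7.28, 919 and 0 FPKM in inhibited queens, against 1291, 1104 and 868 FPKM in egg-laying queens. In both, inhibited queen 2 alone was near the level of egg-laying queens, but recovery queens spread widely too, with 859, 6096 and 3220 FPKM of XM_006562069.1 and 1012, 98.3 and 1182 FPKM of XM_001123087.3. XM_006571877.1 had 445, 5.05 and 700 FPKM in inhibited queens, against 33.6, 1.70 and 17.6 FPKM in egg-laying queens, so that only inhibited queen 2 lay within the range of egg-laying queens, and recovery queens had 25.8, 643 and 5.48 FPKM. Across all transcripts tested, an SD above 1 on the log2 scale was found in 265 transcripts in inhibited, 257 in recovery and 242 in egg-laying queens. GstS1, which encodes a glutathione S-transferase, was at or near 0 in every queen of both groups but egg-laying queen 3, which had 36.8 FPKM. None of these transcripts was differentially expressed.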
